A study of Mus musculus with 2 samples.

Results

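The unfolded protein response and the integrated stress response were followed through 32 genes in mouse fat, chosen by symbol from the known pathways and measured on every probe set (the group of short probes that reads 1 transcript) that the array's annotation assigns to that gene alone. All 32 genes, of 18193 named in this way, were on the array. C57BL/6 mice, an inbred laboratory strain described as healthy and with no genetic change given, ate the high fat diet HFD32 to make them obese or the normal diet CE-2 as the control. Feeding ran from 6 to 18 weeks of age, for 12 weeks, and total RNA was taken from adipose tissue at 18 weeks. Each diet was measured on 1 Affymetrix array, each with RNA pooled from 3 animals, so there is no replicate, no test between the diets and no p-value. The labels name neither the fat depot nor the sex.

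The endoplasmic reticulum (ER) folds the proteins that a cell secretes, and fat cells secrete much, adiponectin and leptin among them. When unfolded protein builds up there, the sensors IRE1 (encoded by Ern1), PERK (Eif2ak3) and ATF6 (Atf6) start the unfolded protein response. IRE1 splices the mRNA of Xbp1 into a form that encodes an active transcription factor, ATF6 is cut to release another, and together they raise genes for chaperones and for ER-associated degradation, which draws misfolded protein out of the ER to be destroyed. PERK and the other eIF2 alpha kinases slow translation while favouring that of Atf4, whose targets include Ddit3, Trib3, Chac1, Asns and Sesn2, and this branch is the integrated stress response. The array reads mRNA amounts, not splicing, cleavage or phosphorylation of the proteins.

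Values are log2 signals, and each difference is high fat diet minus normal diet, so that a difference of 1 is a 2-fold ratio. The probe set that was brightest on average over the arrays stands for its gene, and the gene was compared if that average reached the floor of 5.44, the median of all probe sets other than controls. All 32 genes passed, as did 11778 genes in all, without any use of the difference. The error at hand is an SD of 0.27 (log2) between the differences of probe sets of 1 gene, taken over 5131 genes. It covers the probes, and leaves out animals, dissection and hybridisation.

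Few of the stress genes differed by 2-fold between the diets. Sdf2l1 was the one member at least 2-fold higher on the high fat diet array (3.12% of 32), and 0 were at least 2-fold lower, where 3.28% of all genes above the floor were higher and 3.29% lower by as much. At 1.5-fold, 5 members were higher, Sdf2l1, Edem1, Derl3, Chac1 and Sesn2, which is 15.6% against 8.20% of all genes. The members 1.5-fold lower were Asns and Derl1, 6.25% against 8.52% of all genes. With 32 genes these shares lie within a few genes of the background. A difference above 0 was found in 20 members and one below 0 in 12, 62.5% and 37.5%, while 49.9% of all genes had a difference above 0 and 49.3% one below. The median member differed by 0.14 and the median gene by 0. Past the SD between probe sets, 11 members were higher, 34.4% against 22.1% of all genes, and 3 were lower, 9.38% against 22.2%. In bulk tissue, fewer cells of a type and less RNA per cell cannot be told apart.

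**Figure D1:**
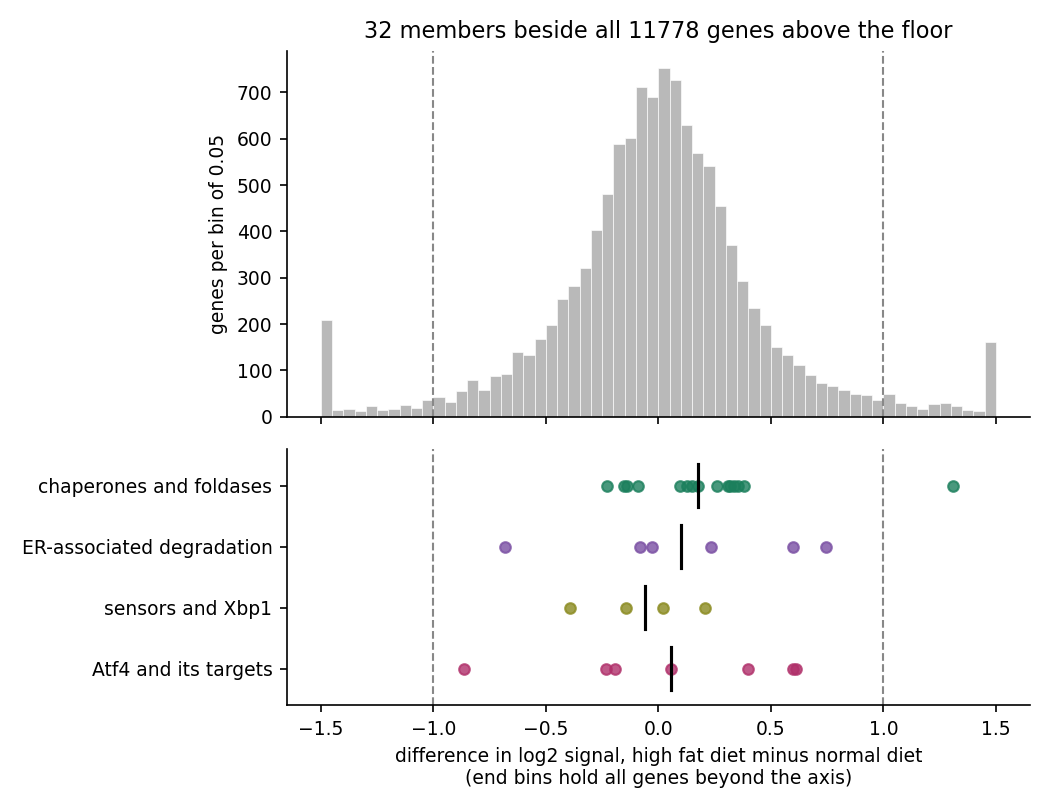
The upper panel counts the 11778 genes above the floor by their difference in log2 signal (high fat diet minus normal diet, in bins of 0.05, with all genes beyond the axis in the end bins), and the lower panel gives each of the 32 members as a point and the median of its role group as a black bar. The medians of the groups lie between -0.06 and 0.18, dashed lines mark 2-fold, and the single member past them is Sdf2l1 at 1.31.

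**Figure D2:**
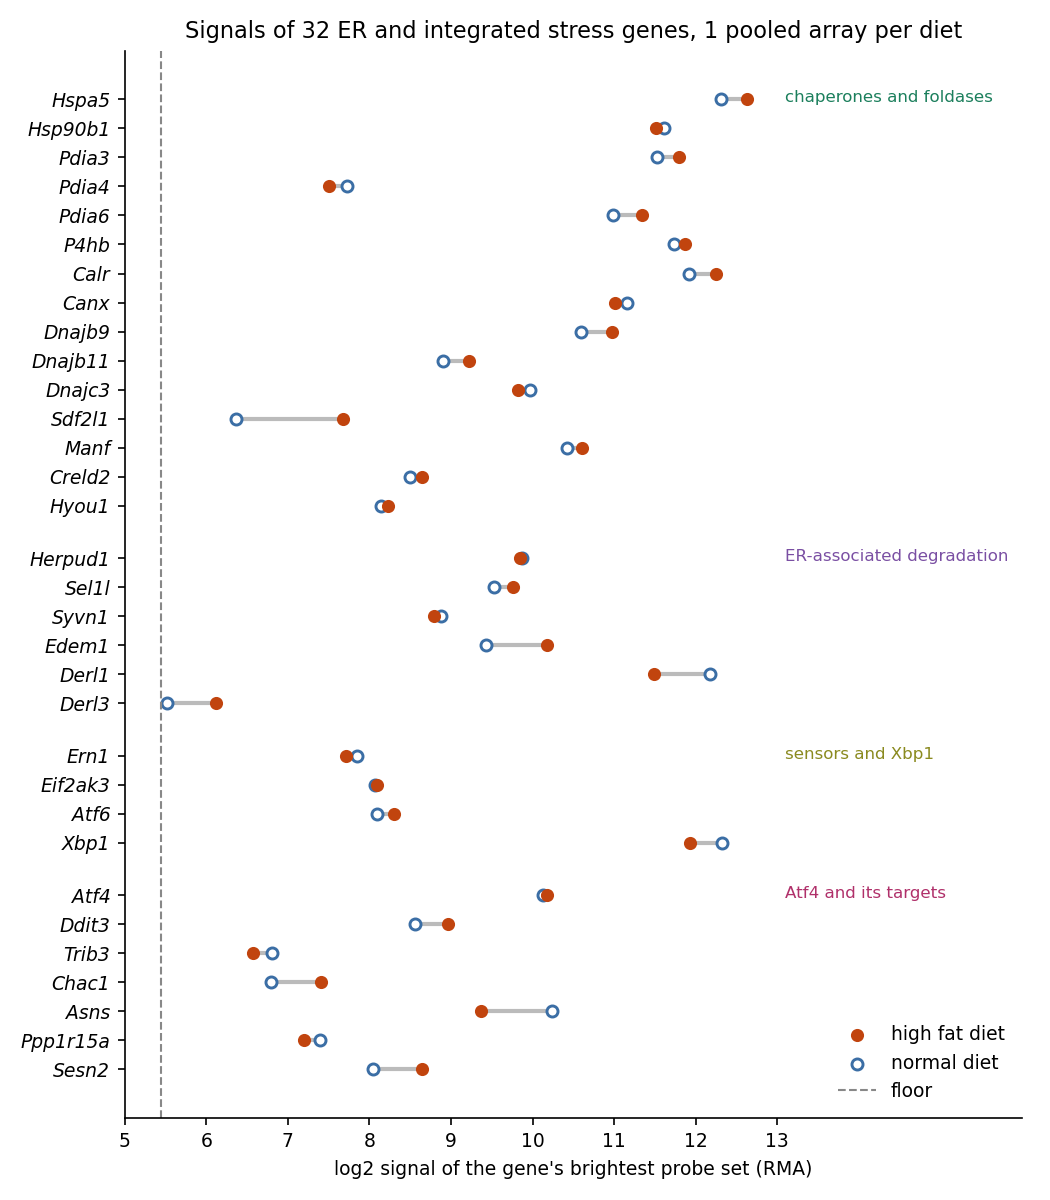
Log2 signal of the probe set that stands for each of the 32 genes on the high fat diet array (filled) and the normal diet array (open), 1 pooled array per diet, with the floor of 5.44 dashed. Most pairs nearly touch, and the long bars belong to Sdf2l1, Edem1, Derl1, Derl3, Chac1, Asns and Sesn2. Levels of different genes come from different probes and are not compared.

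The chaperones and folding enzymes of the ER lumen were mostly slightly higher on the high fat diet array. Of 15 genes, 11 had a difference above 0 and 4 below, with a median of 0.18. Among all genes above the floor, 49.9% had a difference above 0. A single gene that differed by 0.18 would lie within the SD between probe sets. Hsp90b1, Canx and Dnajc3 had probe sets of both signs. Sdf2l1, a partner of ER-resident DnaJ cochaperones, had 7.68 on the high fat diet array and 6.37 on the normal diet array, a ratio of 2.48. A difference as high was reached by 211 of the 11778 genes (1.79%). It rests on 1 probe set, and the other chaperones did not come near it.

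The central chaperone Hspa5, or BiP, which binds unfolded chains and holds the sensors inactive, had 12.62 on the high fat diet array and 12.32 on the normal diet array, a difference of 0.31. Its other probe sets gave 0.21 and 0.10, so all 3 pointed one way by small amounts. The 3 probe sets of Calr, the soluble lectin chaperone calreticulin, lay between 0.34 and 0.45, with signals of 12.25 on the high fat diet array and 11.91 on the normal diet array for the one that stands for the gene. Canx, its membrane-bound counterpart calnexin, did not follow, with 11.02 on the high fat diet array and 11.16 on the normal diet array, and its probe sets ran from -0.14 to 0.31. Hsp90b1, the ER member of the Hsp90 family also called GRP94, likewise gave both signs, -0.09 and 0.35.

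The protein disulfide isomerases, which make and reshuffle disulfide bonds, did not move together. Pdia6 had 11.35 on the high fat diet array and 10.99 on the normal diet array, a difference of 0.36 (0.35 on a dim second probe set). Pdia3, which works with calnexin and calreticulin, had 11.79 on the high fat diet array and 11.53 on the normal diet array, a difference of 0.26 with 0.39 on a second probe set. P4hb, the prototype isomerase and a subunit of the collagen prolyl hydroxylase, differed by 0.13. Pdia4 stood on the other side of 0, with 7.50 on the high fat diet array and 7.73 on the normal diet array. Among these 4 genes the brightest probe set exceeded the SD between probe sets for Pdia6 alone.

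The DnaJ cochaperones, which hand substrates to BiP, were split as well. Dnajb9, also known as ERdj4, had 10.98 on the high fat diet array and 10.59 on the normal diet array, a difference of 0.38. Dnajb11, or ERdj3, had 9.22 on the high fat diet array and 8.90 on the normal diet array, a difference of 0.32. Both exceed the SD, each on 1 probe set. Dnajc3, or p58IPK, was read by 5 probe sets whose differences ran from -0.15 to 0.25, with 1 at exactly 0. The remaining chaperone genes lay closer to 0. They are the secreted protective factor Manf (0.18), Creld2 (0.15) and Hyou1 (0.09), the large Hsp70 relative that exchanges nucleotide on BiP. Hyou1 had 0.43 on a dimmer probe set, which stands for the gene once probe sets of the _x_at, _s_at and _a_at kinds, which can match more than 1 transcript, are left out.

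Many of these chaperones carry the ER stress response element (ERSE), the promoter sequence through which ATF6 acts together with the factor NF-Y, and its copies are shown here to name the members that have it close to the start. The element was searched on both strands as CCAAT and CCACG with 9 bases between them, in the 250 bases before the start of each gene in RefSeq (GRCm38.p6), where 28 of the 32 members had 1 window each. Manf, Hyou1, Derl1 and Atf6 had none. In 26 of the 28 the window ends at the start of the gene in RefSeq's gene table. That of Eif2ak3 lies 31 bases and that of Edem1 4596 bases inside the gene as that table places it, so the bases before the outermost start of Edem1 were not searched. ERSE occurred in 9 of the 28 windows, 7 of 13 for chaperones, 2 of 5 for degradation genes, 0 of 3 for sensors with Xbp1 and 0 of 7 for the Atf4 group, against 37 of 32851 windows of all genes (0.113%). The element was first defined on promoters of such chaperones, so this share describes the list and is no independent finding. Each match is written in the direction of the element, with its fixed letters in capitals and the spacer in lower case.
Hspa5, chr2:34772025-34772043, bases 65 to 47 before the start, strand of the gene: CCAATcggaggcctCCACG
Hsp90b1, chr10:86705638-86705656, bases 212 to 194 before the start, strand of the gene: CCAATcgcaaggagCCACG
Hsp90b1, chr10:86705533-86705551, bases 107 to 89 before the start, opposite strand: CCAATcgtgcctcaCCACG
Pdia6, chr12:17266491-17266509, bases 98 to 80 before the start, strand of the gene: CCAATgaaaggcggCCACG
Calr, chr8:84847075-84847093, bases 162 to 144 before the start, opposite strand: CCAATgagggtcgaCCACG
Canx, chr11:50325800-50325818, bases 145 to 127 before the start, strand of the gene: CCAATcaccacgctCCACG
Dnajc3, chr14:118937827-118937845, bases 105 to 87 before the start, strand of the gene: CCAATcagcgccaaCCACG
Creld2, chr15:88819520-88819538, bases 126 to 108 before the start, opposite strand: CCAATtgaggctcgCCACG
Syvn1, chr19:6046532-6046550, bases 44 to 26 before the start, strand of the gene: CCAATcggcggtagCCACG
Derl3, chr10:75893242-75893260, bases 156 to 138 before the start, opposite strand: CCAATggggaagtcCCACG
These 9 genes had a median difference of 0.15, from -0.15 to 0.60, with 5 above and 4 below 0. The 19 with a window and no such match had a median of 0.13, from -0.86 to 1.31. Among chaperones alone the medians were 0.15 over the 7 with the element and 0.29 over the 6 without. The 19 include Edem1. A match is only a match of letters in this window.

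Sdf2l1 had the highest difference among chaperone and degradation members. Its window is shown for that reason, and it held none of the 4 sequences searched, which besides ERSE were ERSE-II (ATTGG and CCACG with 1 base between), the Xbp1-type element UPRE (TGACGTGG) and the composite site of C/EBP and ATF factors (TGATGNAA), all on both strands, with no overlap between matches in these 28 windows. It is printed in the direction of the gene and ends at the base before its start, in GRCm38.p6 from RefSeq, with no capitals since nothing matched. The window of Edem1, second in that order, is not shown, because it lies inside the gene as the gene table places it.
Sdf2l1 promoter, chr16:17132384-17132633, minus strand: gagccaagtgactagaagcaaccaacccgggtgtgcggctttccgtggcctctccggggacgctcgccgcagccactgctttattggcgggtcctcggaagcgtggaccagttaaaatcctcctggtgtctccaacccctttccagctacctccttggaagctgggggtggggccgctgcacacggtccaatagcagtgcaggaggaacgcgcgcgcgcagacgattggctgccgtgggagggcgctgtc
Nothing about a factor follows from the absence of these letters. ERSE-II was in 10 of all windows (0.0304%) and in 1 of 28 member windows, that of Herpud1, 52 to 42 bases before its start. UPRE was in 185 of all windows (0.563%) and in 0 of the 28.

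The genes of ER-associated degradation went in opposite directions, with 3 of 6 above 0, 3 below and a median of 0.10. That median was -0.03 with a floor at the 75th percentile of probe sets and -0.002 without probe sets of the _x_at, _s_at and _a_at kinds. Edem1, which picks out misfolded glycoproteins, had 10.18 on the high fat diet array and 9.44 on the normal diet array, a ratio of 1.67. Its second probe set had 9.91 on the high fat diet array and 9.67 on the normal diet array, a ratio of 1.18. The 2 probe sets therefore share a direction and not a size.

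Sel1l, the adaptor that carries substrates to the ubiquitin ligase of the ER membrane, was higher on all 5 of its probe sets, by 0.23 to 0.63. The lowest of these came from the probe set that stands for the gene, with 9.76 on the high fat diet array and 9.52 on the normal diet array. Syvn1, that ligase itself, also called HRD1, differed by -0.08 and -0.002 on its probe sets. Herpud1, which helps assemble the complex, differed by -0.03 and -0.13.

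The derlins, membrane proteins of the exit channel, stood apart from each other. Derl1 was lower on all 4 probe sets, by -0.20 to -0.78, with 11.49 on the high fat diet array and 12.18 on the normal diet array for the brightest, which is 1.60-fold lower. Without probe sets of the _x_at, _s_at and _a_at kinds its difference was -0.20. Derl3, known from secretory tissues such as pancreas and plasma cells, had 6.12 on the high fat diet array and 5.52 on the normal diet array, 1.51-fold higher on its only probe set. On the normal diet array it lay just above the floor.

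**Figure D3:**
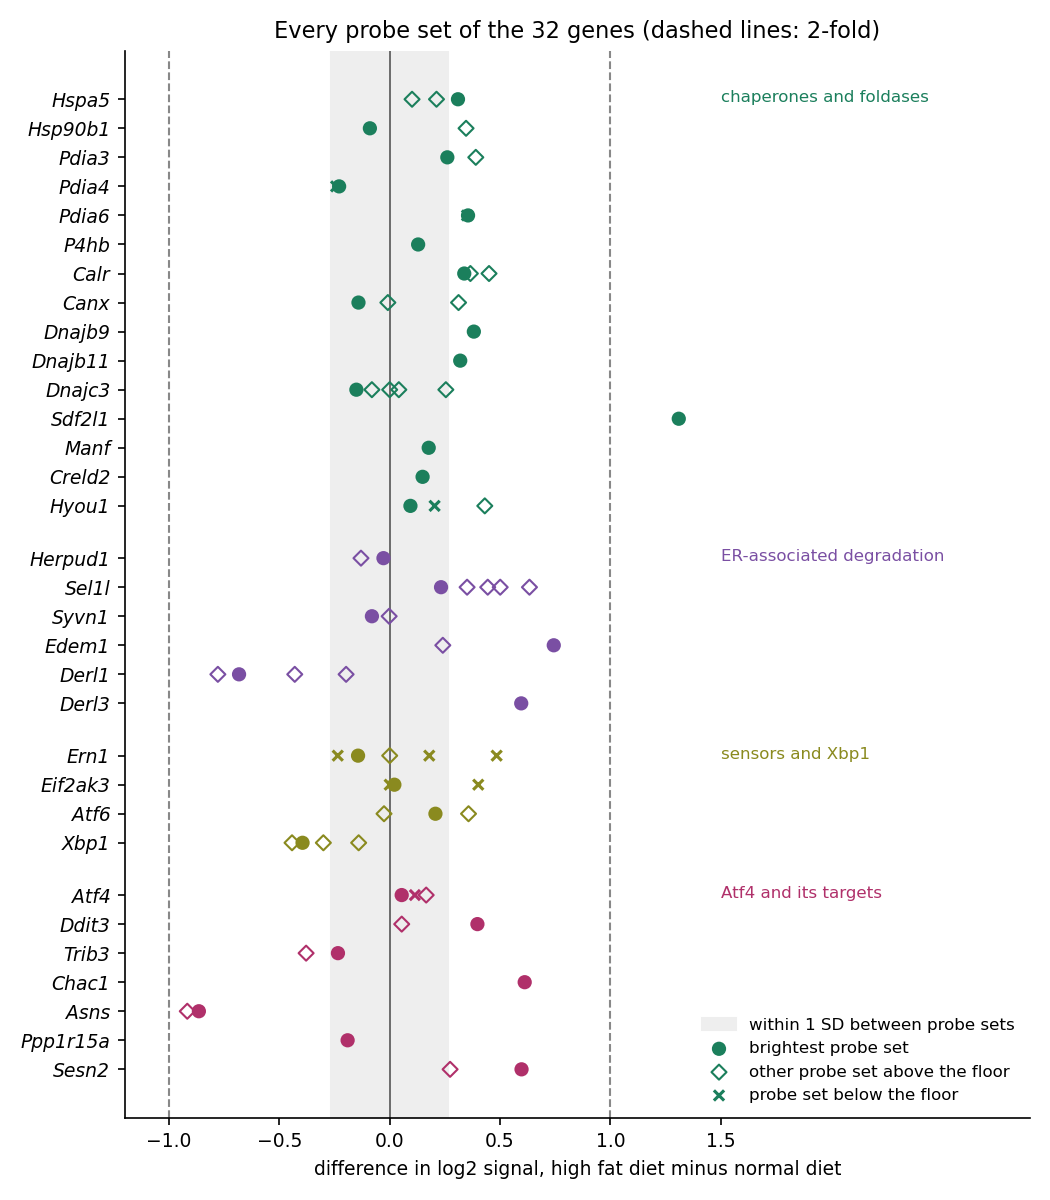
Difference in log2 signal (high fat diet minus normal diet) of every one of the 75 probe sets of the 32 genes, with filled circles for the brightest, diamonds for others above the floor and crosses for those below it, the SD of 0.27 between probe sets of 1 gene in grey, and 2-fold dashed. Sel1l and Calr lie wholly right of 0 and Derl1, Xbp1 and Asns wholly left. Hsp90b1, Canx, Dnajc3 and Atf6 straddle 0 with probe sets above the floor, and Ern1 does so only when those below the floor are counted.

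Across all members, 66 of 75 probe sets were above the floor, 39 with a difference above 0, 25 below and the others at exactly 0. Of the 20 genes read by more than 1 of them, 9 were above 0 on every such probe set and 6 below. The same counts over all 5131 genes with 2 or more probe sets above the floor are not given here. These counts therefore describe the members alone and cannot be called high or low. Hsp90b1, Canx, Dnajc3 and Atf6 gave both signs, and Ern1 gave 1 negative value and 1 of exactly 0. The other 12 genes rest on 1 probe set above the floor, among them Sdf2l1, Chac1 and Derl3.

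The sensors were nearly level between the diets. Ern1 had 7.71 on the high fat diet array and 7.85 on the normal diet array. Eif2ak3 had 8.09 on the high fat diet array and 8.07 on the normal diet array. Atf6 had 8.31 on the high fat diet array and 8.10 on the normal diet array, with -0.03 and 0.36 on its other probe sets. None of these 3 differences reached the SD between probe sets.

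Xbp1, the factor downstream of IRE1, was the exception in the group by its brightest probe set. It had 11.93 on the high fat diet array and 12.32 on the normal diet array, a difference of -0.39. All 4 probe sets were below 0, from -0.14 to -0.44. Without probe sets of the _x_at, _s_at and _a_at kinds its difference was -0.14, which is less than the SD between probe sets. The deposited values do not separate the spliced from the unspliced form. The median of the 4 genes was -0.06, and 0.01 when each gene took the median over its probe sets.

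Atf4 and the targets of its pathway spread from -0.86 to 0.61 over 7 genes, with 4 above 0, 3 below and a median of 0.05. Atf4 itself, whose control is largely at translation, had 10.18 on the high fat diet array and 10.12 on the normal diet array. Ddit3, which encodes the death-promoting factor CHOP, had 8.96 on the high fat diet array and 8.56 on the normal diet array, a difference of 0.40, with 0.05 on a dimmer probe set. Chac1, an enzyme that degrades glutathione, had 7.41 on the high fat diet array and 6.80 on the normal diet array, 1.53-fold higher on its only probe set. Sesn2, a stress-induced inhibitor of mTORC1, was 1.51-fold higher, with 8.64 on the high fat diet array and 8.04 on the normal diet array, and a second probe set gave 0.27.

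Other targets of the same factor were lower. Asns, the asparagine synthetase that cells raise when amino acids run short, had 9.37 on the high fat diet array and 10.24 on the normal diet array, 1.82-fold lower. Its second probe set gave -0.92, and 503 of the 11778 genes (4.27%) had a difference as low as that of the first. Trib3, a pseudokinase that dampens Atf4 and Akt signalling, had 6.57 on the high fat diet array and 6.80 on the normal diet array, with differences of -0.23 and -0.38. Ppp1r15a, or GADD34, which leads the phosphatase that reverses eIF2 alpha phosphorylation, differed by -0.19. Chac1 and Asns, both textbook targets, thus lay at opposite ends of the group.

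The windows of Asns and Chac1 are shown because these genes had the largest absolute differences of the group, and each held 1 match to the composite C/EBP and ATF site, in capitals. Such a match stood in 1134 of all windows (3.45%) and in 3 of the 28 member windows, the third being Herpud1. In Chac1 it lies on the other strand, 193 to 186 bases before the start, and in Asns on the strand of the gene, 23 to 16 bases before it.
Asns promoter, chr6:7693210-7693459, minus strand: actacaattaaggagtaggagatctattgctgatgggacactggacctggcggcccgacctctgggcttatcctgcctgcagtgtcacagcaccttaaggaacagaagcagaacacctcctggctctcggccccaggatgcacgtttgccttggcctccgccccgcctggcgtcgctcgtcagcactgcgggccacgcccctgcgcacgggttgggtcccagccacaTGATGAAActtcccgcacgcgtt
Chac1 promoter, chr2:119350992-119351241, plus strand: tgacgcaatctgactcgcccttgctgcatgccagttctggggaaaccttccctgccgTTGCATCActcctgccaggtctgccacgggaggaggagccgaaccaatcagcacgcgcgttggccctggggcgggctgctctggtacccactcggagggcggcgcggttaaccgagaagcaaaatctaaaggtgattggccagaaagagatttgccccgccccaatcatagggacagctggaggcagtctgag
Both windows are again in the direction of the gene and in GRCm38.p6 from RefSeq. Herpud1, with the same kind of match, differed by -0.03.

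Set against each other, the chaperone and degradation genes had a median of 0.18 over 21 genes and Atf4 with its targets 0.05 over 7, a gap of 0.12. The gap turned to -0.08 with the floor at the 75th percentile and to -0.02 without probe sets of the _x_at, _s_at and _a_at kinds. At 1.5-fold, 3 of the 21 were higher (14.3%) and 1 lower (4.76%). Of the 7, 2 were higher (28.6%) and 1 lower (14.3%). Among all genes above the floor, 8.20% were higher and 8.52% lower by as much. In lists this small the shares rest on few genes.

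Other genes of the same pathways, in lists drawn up by function, gave a like picture. Of 89 such genes above the floor, 57 were above 0 and 32 below, with a median of 0.11, and Atf3 alone was past 2-fold. Among all genes above the floor, 49.9% were above 0 and 49.3% below, and 3.28% were higher and 3.29% lower by 2-fold or more. Genes of protein entry into the ER and early secretion had the highest median of these 8 lists, 0.24 over 16 genes, with 13 above 0. The signal peptidase subunit Sec11c (0.66) led them, and the translocon partner Sec62 (-0.09) was lowest. Other folding genes had a median of 0.13 over 16, from 0.43 for Erp29, an ER thioredoxin-like protein, to -0.11 for Hspa13. Other degradation genes had a median of -0.01 over 12, from 0.33 for Ubxn4, an ER membrane protein that recruits the extracting ATPase p97, to -0.14 for Herpud2, a relative of Herpud1.

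On the side of the integrated stress response, Atf3, a factor induced by Atf4 and by many other stress and immune signals, had 9.48 on the high fat diet array and 6.77 on the normal diet array, 6.55-fold higher. The 10 stress factors and secreted outputs had a median of 0.06, and Stc2, a secreted stanniocalcin, was lowest at -0.37. Cytosolic tRNA synthetases, which charge tRNAs with amino acids and include Atf4 targets, had a median of 0.17. Of these 12 genes 10 were above 0, as were 49.9% of all genes above the floor. Cars, which loads cysteine, was highest at 0.65 and Wars, which interferon also raises, lowest at -0.48.

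Amino acid transport and synthesis genes, the class to which Asns belongs, had a median of -0.05 over 12, from 0.31 for Psat1 of serine synthesis to -0.26 for the glutamine carrier Slc1a5. The low value of Asns thus had no match among them. The eIF2 alpha kinases and partners had 0.05 over 4, from 0.22 for Eif2ak4, the kinase GCN2 that senses a lack of amino acids, to -0.31 for Ppp1r15b, the constitutive relative of Ppp1r15a. Membrane-bound factors and their proteases had -0.01 over 7, from 0.60 for Creb3 to -0.32 for Mbtps1, the protease that makes the first cut in ATF6.

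**Figure D4:**
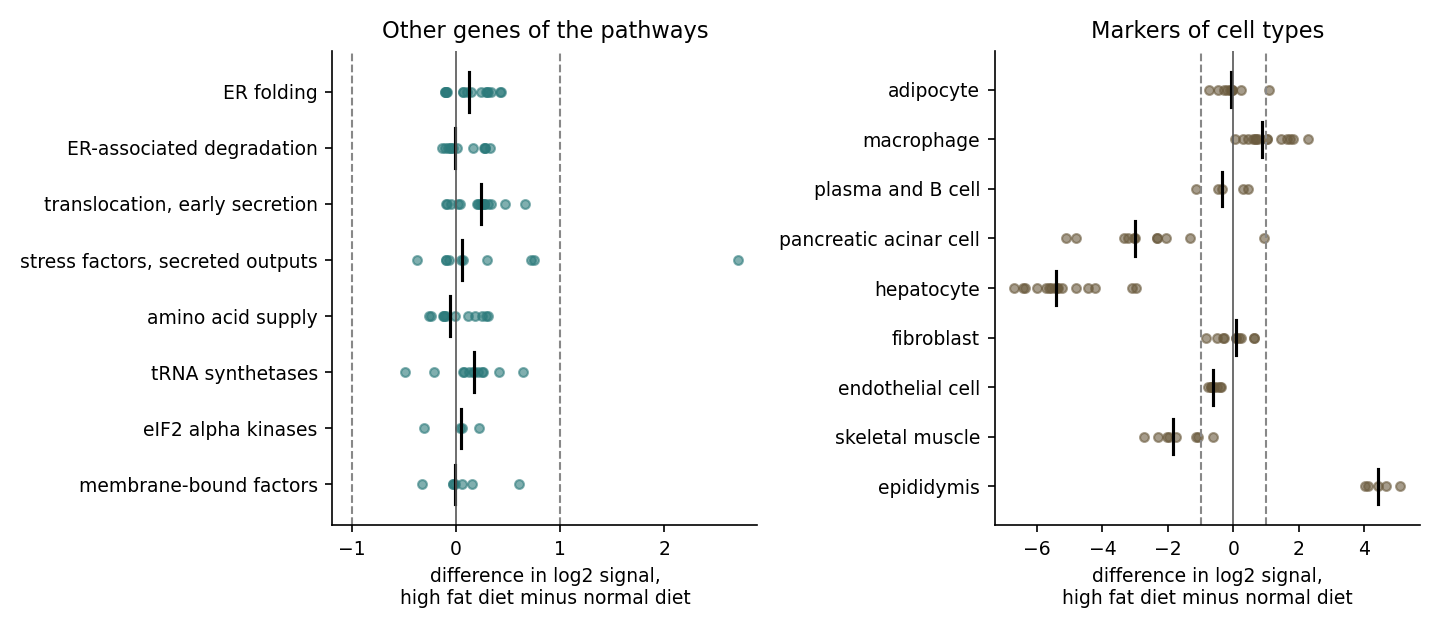
Differences in log2 signal (high fat diet minus normal diet) of single genes above the floor, as points with the median of each list as a bar, for other genes of the pathways (left) and for cell type markers (right, on a wider axis), with 2-fold dashed. Pathway lists have medians from -0.05 to 0.24, with Atf3 alone past 2-fold, whereas hepatocyte and pancreatic markers lie far to the left and epididymis markers far to the right.

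Several lists of cell type markers differed far more between the arrays than these genes did. Adipocyte markers had almost the same summed linear signal on both arrays, 90377 on the high fat diet array and 91038 on the normal diet array over the 10 of 12 with a probe set. Of these 10, however, 2 were above 0 and 8 below, with a median of -0.07. Among them Lep, leptin, was highest (1.08) and the glucose transporter Slc2a4 lowest (-0.74). All 14 macrophage markers were above 0, with a median of 0.89 and sums of 36773 on the high fat diet array and 20083 on the normal diet array, from 2.30 for Cd68 to 0.04 for Cd163. Fibroblast markers had a median of 0.09, with 6 of 10 above 0 and sums of 43109 on the high fat diet array and 41454 on the normal diet array, from 0.65 for Lum to -0.84 for Fbln1.

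Markers of hepatocytes and of the pancreas were mainly lower with the high fat diet. All 16 hepatocyte markers were lower, with sums of 840 on the high fat diet array and 33869 on the normal diet array, and differences from -2.96 for Hpx to -6.70 for Serpina1c. On the high fat diet array 6 of the 16 were below background, the 95th percentile of sensory receptor probe sets, and on the normal diet array 0 were. Of 11 pancreatic acinar markers above the floor, 10 were lower and Cela1 (0.95), an elastase, was higher. Its linear signal was 1874 on the high fat diet array and 973 on the normal diet array. The sums over the 12 with a probe set were 2287 on the high fat diet array and 4032 on the normal diet array, and 6 of them on the high fat diet array and 0 on the normal diet array were below background. Without Cela1 the sums were 412 on the high fat diet array and 3059 on the normal diet array. Cpb1, a digestive carboxypeptidase and the lowest, had 3.78 on the high fat diet array, which is under background, and 8.90 on the normal diet array.

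Plasma and B cell markers had 2 of 5 above 0, with a median of -0.35 and sums over 9 of 10655 on the high fat diet array and 8085 on the normal diet array, and 2 of the 9 on the high fat diet array and 3 on the normal diet array were below background. Ighm was highest (0.45) and Ms4a1 lowest (-1.13). Most of either sum is Ighm, and without it the sums were 559 on the high fat diet array and 679 on the normal diet array. Endothelial markers were lower in 8 of 8 cases, with sums of 2272 on the high fat diet array and 3377 on the normal diet array, from -0.39 for Cdh5 to -0.76 for Emcn. Skeletal muscle markers were lower in 8 of 8, with sums over 9 of 1935 on the high fat diet array and 4631 on the normal diet array, from -0.62 for Acta1 to -2.72 for Myh4. Epididymis markers were higher in 5 of 5 above the floor, with sums over 8 of 2676 on the high fat diet array, where 2 of the 8 lay under background, and 163 on the normal diet array, where 7 did. Lcn8, the highest of these, had 9.37 on the high fat diet array and 4.26, below background, on the normal diet array, and Gpx5, the lowest, had 9.62 on the high fat diet array and 5.59 on the normal diet array.

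These shifts ran in both directions, as did the differences of the member genes. Without replicate arrays, every lower gene shares its direction with every lower marker, and every higher gene with every higher marker. A shared direction therefore says nothing of a link between them. Hepatocyte and pancreatic markers were mainly lower on the high fat diet array, as were Asns, Derl1 and Xbp1. Macrophage and epididymis markers above the floor were higher, as were Sdf2l1, Edem1, Derl3, Chac1 and Sesn2, while endothelial and skeletal muscle markers were lower. Derl3 is known from pancreas and plasma cells. Of markers above the floor, 10 of 11 pancreatic and 3 of 5 plasma and B cell ones were lower. In the latter list Jchain (-0.35), Cd79b (-0.45) and Ms4a1 (-1.13) were lower, and Ighm (0.45) and Irf4 (0.29) higher. The part of any of these shifts in the differences of the stress genes was not tested.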

How the data were processed

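Total RNA of adipose tissue was hybridised to 2 Affymetrix mouse arrays, 1 per diet, each a pool of 3 animals. The deposited values are log2 signals that the authors made with RMA (version not given in the sources used here), per the submitters' processing notes, for 45101 probe sets. RMA equalises the distributions of the arrays, so that a change in total RNA is lost. Differences of dim and of bright probe sets can be compressed in array values. The number of arrays limits the precision. Gene symbols come from the platform annotation of GEO, which may be outdated, and 34958 had 1 symbol, 932 several and 9160 other than controls none. Of the first, 34754 were found in RefSeq by Entrez ID.

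Differences, floors, lists and motif matches were computed with Python 3.11.15, pandas 2.3.3 and numpy 2.4.6. The step that gives each gene's difference was tested on simulated data, with shifts larger than that of any member. List summaries and motif matches were not tested in this way. Members, lists and the naming rule (members past 2-fold, the 3 farthest of each role, the sensors with Xbp1, and Atf4, Ddit3 and Hspa5; the highest and lowest gene of each pathway and marker list, and any pathway gene past 2-fold) were chosen with earlier results of these data known. The rule also names the Edem1 window for printing, and it was left out once its place inside the gene was seen. The list counts and medians are descriptions. Alternatives changed the floor, the probe set per gene, the background and the scaling.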

Additional observations from a re-analysis of the deposited data

How the results depend on the processing

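Under 8 alternatives, the 7 summary results gave 56 values. List medians were read against the error that probes alone give a median of n genes (1 SD, taking genes as independent), which is 0.09 for chaperones, 0.14 for degradation genes, 0.17 for sensors with Xbp1, 0.13 for the Atf4 group and 0.15 for the gap between lists. This measure was chosen after the values were seen, in place of the SD between probe sets of 1 gene, which is too wide for a median. By it 52 of the 56 values moved less than the error (counts by less than 1.5 times), against 55 by the wider SD. All members lay above the floor and above background. Their values therefore could not move with no floor, a floor at background or dim signals raised to background. Both tallies count these values as unmoved. With the floor at the 75th percentile (7.60) the count of members at least 2-fold higher was 0, since Sdf2l1 is not compared and 27 members remain, the Atf4 median was 0.23 over 4 genes and the gap was -0.077. Without _x_at, _s_at and _a_at probe sets the Atf4 median was also 0.23 and the gap -0.02. The count at least 2-fold lower was 0 in each. Medians ran from 0.16 to 0.26 for chaperones, from -0.03 to 0.20 for degradation genes and from -0.07 to 0.01 for sensors with Xbp1, so the sign of the last pair and of the gap depends on these choices. Of 245 values of single members, 2 moved by more than the SD between probe sets (Hyou1 and Derl1, both without _x_at, _s_at and _a_at probe sets). A floor decides only which genes are compared, so it could not change the difference of a single member. Many of the 245 values were thus fixed in advance. Centring or quantile normalization moved the median of all genes by 0.01. No paired analysis was possible because each diet has 1 array.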

Other observations

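Among the 75 probe sets of the stress genes, 3 had exactly the same deposited value on both arrays, namely 1 each of Dnajc3 (6.93), Ern1 (5.62) and Eif2ak3 (2.97). Over the whole array this held for 1509 of 45101 probe sets (3.35%), of which 1285 lay below the floor and 224 at or above it, at log2 signals up to 10.47. None of the 3 stands for its gene in the comparison.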
